A study of Homo sapiens with 27 samples.

Results

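The comparison described here is between the populations of MDA-MB-231 cells in which ZEB1 had been silenced with different guide RNAs (gRNAs), called set 1 and set 2. MDA-MB-231 is a human triple negative breast cancer (TNBC) cell line with mesenchymal features. The members were chosen by their data columns and comprised 6 of the 27 RNA-seq libraries of the series, 3 per set. All 3 transduced groups of the line carried a lentiviral vector that expressed dCas9-KRAB, a catalytically inactive Cas9 joined to a transcriptional repressor domain, from the hUbC promoter together with a puromycin resistance gene, and were selected with 0.75 µg/ml puromycin. The groups were wild type (untransduced cells), No gRNA (the vector without a targeting gRNA), and sets 1 and 2 (the vector with gRNA 4 alone or with all 4 gRNAs against the ZEB1 promoter). Each group had 3 libraries, and all their data columns carry the prefix B2, which was taken as sequencing run 2. The sample titles name gRNA 4 for set 1 and the pool for set 2, whereas the data columns name the pool for set 1 and gRNA 4 for set 2, so that the guide in each set was not assigned. The methods describe the replicates as individual clones, and which guides, clones or cultures underlie a difference between the sets cannot be told apart in this design.

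The 12 MDA-MB-231 libraries held between 15461200 and 17288989 estimated counts, and replicates of a group correlated at 0.970 to 0.974 across genes (Pearson's r of log2 values). Replicates of each set differed by more than sampling noise, so none was counted as a duplicate. Transcripts that define the line were present in both sets: vimentin (VIM) and CD44 were abundant, and the estrogen and progesterone receptor genes ESR1 and PGR stayed below 1 CPM (library-scaled counts, comparable between libraries for a given gene) in all 6 libraries. RNA of 42 genes that mark SUM159, the other line of the series, summed to 4.49 to 7.19 CPM in the sets. The same sum was 8.17 to 9.97 CPM in No gRNA and 3241 to 3593 CPM in the SUM159 libraries. In wild type it was 1.93 to 2.33 CPM, where the genes were chosen to be at or under 3 counts. The 6 leukocyte markers summed to 1.60 to 1.81 CPM in set 1 and 1.2 to 1.74 CPM in set 2, with 1 of the 6 at 0 in both (4.59 to 5.98 CPM in No gRNA), and the 8 endothelial and fibroblast markers summed to 14.1 to 17.5 and 10.8 to 12.2 CPM, with LUM at 0. The part of these low levels in any result was not tested.

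ZEB1 encodes a zinc finger and homeodomain repressor that binds E-boxes in the promoters of epithelial genes such as CDH1 and holds carcinoma cells in a mesenchymal state. Cells that differ in proliferation, in supply of amino acids or in inflammatory signalling differ in broad transcript programs: E2F factors drive replication genes, the DREAM and MuvB complexes time mitotic genes, ATF4 induces genes of amino acid supply when translation initiation is restrained, and NF-kB and AP-1 induce cytokines and proteases. MDA-MB-231 cells are known for high basal ERK and NF-kB signalling and for expression of interleukins.

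ZEB1 was silenced to a similar level in both sets. ZEB1 was at 4.84, 5.6 and 5.88 CPM in set 1 and at 5.09, 3.84 and 5.6 CPM in set 2, against 106, 124 and 106 CPM in No gRNA and 78.2, 69.5 and 73.9 CPM in wild type. The values of the sets overlapped, and each of the 6 lay far below all 6 control libraries. The log2 fold change of set 2 minus set 1 was -0.18 (SE 0.228, 95% interval -0.68 to 0.32, limma moderated adjusted p = 0.528), and an exact two-sided permutation test of the 3 against 3 libraries gave p = 0.6, where 0.1 is the smallest value that this design allows. ZEB1-AS1, which is transcribed from the opposite strand and overlaps ZEB1, was at 0.218, 0.0907 and 0.675 CPM in set 1 and 1.02, 0.598 and 2.35 CPM in set 2, and at 7.43, 8.61 and 5.59 CPM in No gRNA. Set 1 was lower on average, with overlap between the sets (log2 difference 2.06, SE 0.757, moderated adjusted p = 0.0394, exact permutation p = 0.2). Reads of ZEB1 and ZEB1-AS1 could not be separated by strand with the counting that the sources describe. ZNF10, the human gene from which the KRAB domain is taken, was at 319.5, 329.5 and 369 CPM in set 1, 297, 306 and 293 CPM in set 2 and 297, 292 and 269 CPM in No gRNA, and at 1.23, 1.9 and 2.81 CPM in wild type. Set 1 was 1.13-fold above set 2 in ZNF10 (log2 difference -0.18, SE 0.061, moderated adjusted p = 0.0279).

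**Figure D1:**
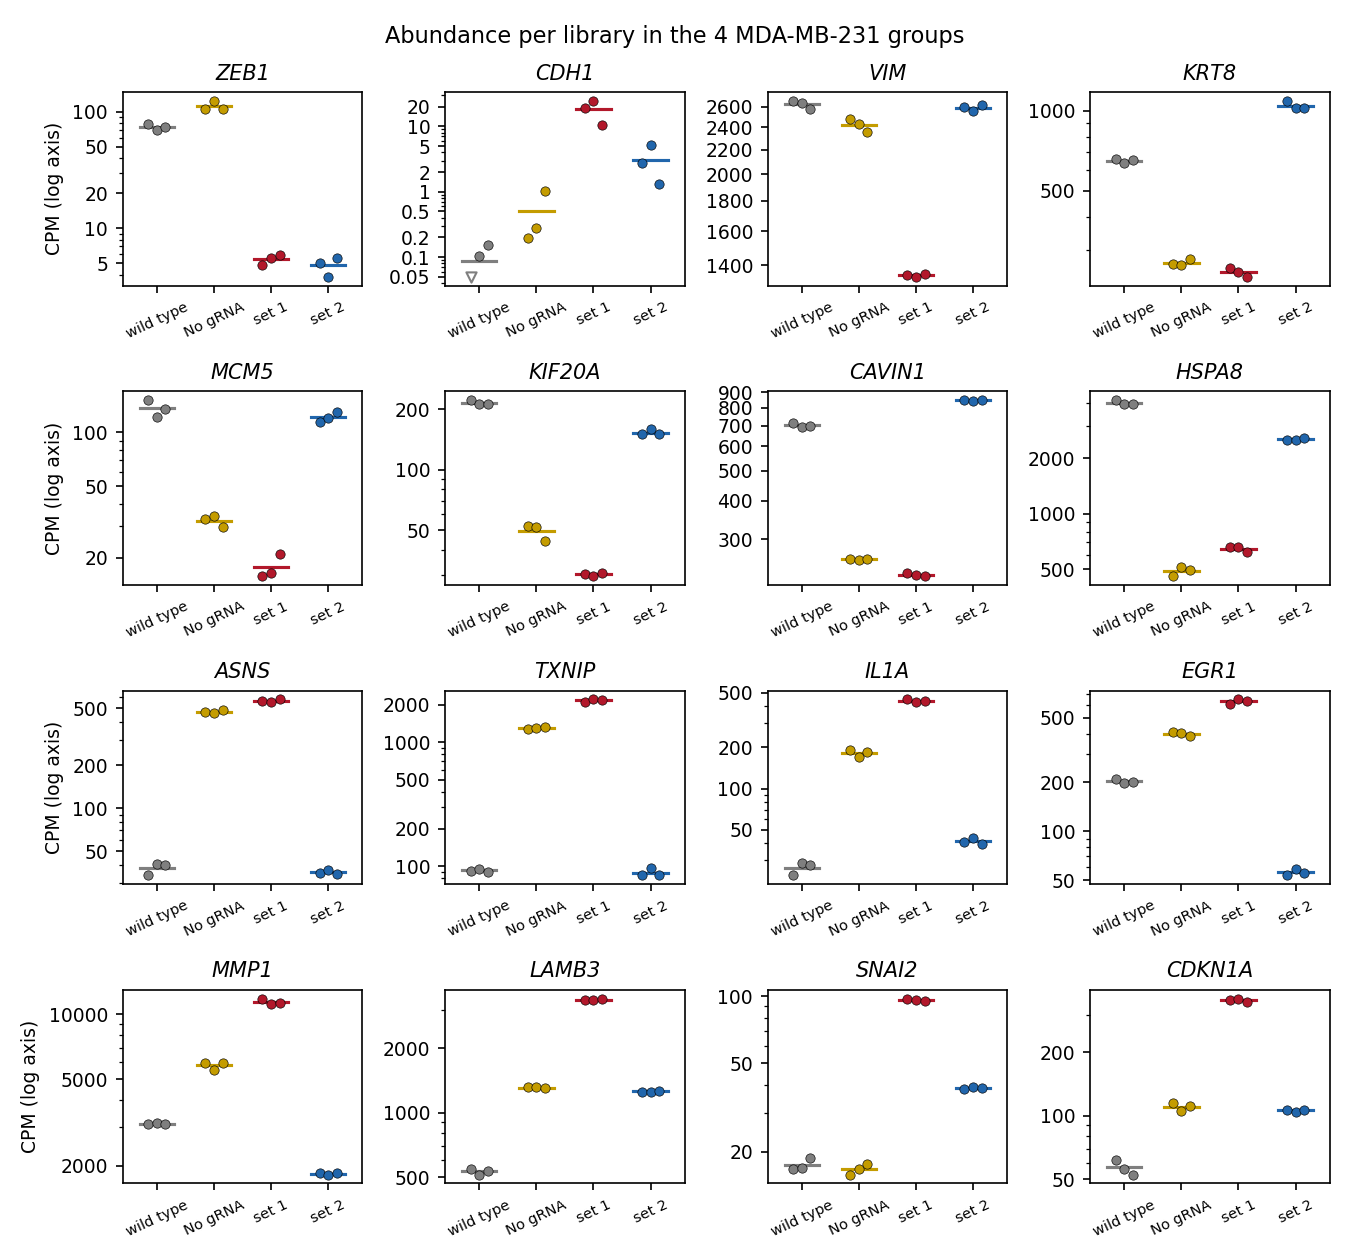
Abundance of 16 genes in CPM on a log axis, 1 panel per gene, in 3 libraries each of wild type, No gRNA, set 1 and set 2, with points for libraries and bars for group means (the open triangle marks a value of 0). ZEB1 was similar in both sets, whereas all other panels had no overlap between the sets, with VIM, KRT8, MCM5, KIF20A, CAVIN1 and HSPA8 higher in set 2 and the remaining 9 higher in set 1.

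Beyond ZEB1 the sets were distinct. Replication, mitosis and caveolar coat genes were higher in set 2, and amino acid response, cytokine, immediate early and matrix protease genes were higher in set 1. Genes were called by TREAT, a limma test against an absolute log2 fold change of 1, at an adjusted p below 0.05. Of 15721 genes tested, 483 were called, 191 higher in set 2 (1.21% of genes tested) and 292 higher in set 1 (1.86%). The moderated test against 0 placed 3968 genes (25.2%) higher in set 2 and 4130 (26.3%) higher in set 1. The 3 values of one set did not overlap those of the other for 4496 genes that were higher in set 2 (28.6%) and 4751 that were higher in set 1 (30.2%). Counts in gene lists below are to be read against these shares. Differences were mostly moderate: 8671 genes had an absolute log2 fold change of up to 0.5, 4237 of 0.5 to 1, 2255 of 1 to 2 and 558 above 2. The median over all genes tested was -0.03. Chromosome medians ranged from -0.09 to 0.05, and 1.23% to 5.11% of the genes tested on a chromosome were called.

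Genes of the G1/S transition and DNA replication, which E2F factors induce before cells copy their genome, were higher in set 2. All 25 members were tested, and 17 were called higher in set 2 and 0 higher in set 1. All 25 passed the moderated test in the same direction, with a median log2 fold change of 1.65. In bulk libraries, fewer cells in a phase and less RNA per cell cannot be told apart. MCM5, a subunit of the replicative helicase, was at 15.8, 16.5 and 20.9 CPM in set 1 and at 114, 120.3 and 129 CPM in set 2. Its lowest value in set 2 was several times its highest in set 1 (6.89-fold, log2 2.78, SE 0.133, TREAT adjusted p = 3.66e-06). MCM3, of the same complex, was at 80.9, 84.5 and 83.4 CPM in set 1 and 364, 354 and 359.6 CPM in set 2 (log2 2.11, SE 0.036, TREAT adjusted p = 2.18e-09). GINS2, which joins the helicase with CDC45, was at 4.34, 4.97 and 3.74 CPM in set 1 and 26.9, 31.6 and 28.7 CPM in set 2 (log2 2.73, SE 0.17, TREAT adjusted p = 3.66e-05). The sliding clamp PCNA rose from 71.7, 67.5 and 66.1 CPM in set 1 to 225, 225 and 220.4 CPM in set 2 (3.26-fold). E2F1, the activator of this group, was itself 3.7-fold higher in set 2, at 58.7, 59.5 and 58.3 CPM against 16.5, 15.8 and 15.4 CPM. RRM2, MCM4, CDC45, MCM2, CDT1, MCM10, UHRF1, MCM6, TYMS, CLSPN and FEN1 were also called. CCNE2 and CDC6 were not called (2.2-fold and 1.93-fold higher in set 2).

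Outside the fixed list, 3 of the named genes with the largest fold changes in set 2 act in the same process. ORC1, a subunit of the origin recognition complex, was at 2.89, 2.89 and 2.47 CPM in set 1 and 24.4, 24 and 23.3 CPM in set 2 (log2 3.11, SE 0.149, TREAT adjusted p = 2.34e-06). SKP2, the F-box protein that targets the CDK inhibitor p27 for degradation, was at 8.11, 6.74 and 10.4 CPM in set 1 and 65.2, 60.7 and 64.6 CPM in set 2 (log2 2.94, SE 0.149, TREAT adjusted p = 4.8e-06). LIG1, which joins Okazaki fragments, was at 9.06, 11.2 and 10.8 CPM in set 1 and 72.4, 75.5 and 77.5 CPM in set 2 (log2 2.86, SE 0.127, TREAT adjusted p = 1.79e-06). For all 3 genes the sets were separated by a wide gap. The remaining genes of the 12 named by size in this direction were MPP4, a membrane scaffold gene (14-fold), ZBED2 (7.22-fold), the caveolar gene CAVIN2, the host transcript MIR137HG (6.4-fold), the antisense transcript TMPO-AS1 (6.37-fold), LRRC45 (5.88-fold) and WDR76 (5.79-fold).

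Promoter letters were examined for these groups as a description. The lists were composed by function, and each is given with a motif of factors known to act on such genes. A high share within a list therefore describes its members and not the difference between the sets. Promoters of RefSeq genes (GRCh38.p14, 250 bases before to 50 after the start) were found for 11401 of the genes tested. The letters TTTNNCGC, an E2F-type motif read on both strands, occurred in 13 of 21 G1/S promoters (61.9%), in 21.6% of the promoters of genes called higher in set 2, in 6% of those called higher in set 1 and in 10.3% of all promoters of genes tested. Stretches of GINS2 (chr16:85688955-85689054, minus strand) and MCM3 (chr6:52284839-52284938, minus strand) are shown as examples of strongly differing replication genes, 5′ to 3′ on the strand of the gene, with the motif in capitals.
GINS2: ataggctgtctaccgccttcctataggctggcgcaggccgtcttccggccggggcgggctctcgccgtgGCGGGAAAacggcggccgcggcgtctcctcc
MCM3: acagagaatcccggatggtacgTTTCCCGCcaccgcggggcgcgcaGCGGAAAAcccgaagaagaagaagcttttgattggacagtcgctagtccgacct
The stretch of GINS2 holds 1 match, on the opposite strand, and that of MCM3 holds 2, of which the second is on the opposite strand. A match is a description of these letters and not a measured binding site.

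Mitosis and G2/M genes were also higher in set 2, by less. Of 30 members tested, 6 were called higher in set 2 and 0 higher in set 1, and 27 passed the moderated test higher in set 2 against 1 higher in set 1, with a median log2 fold change of 0.83. KIF20A, a kinesin of the late spindle, was at 30.2, 29.6 and 30.6 CPM in set 1 and 149.5, 158 and 149 CPM in set 2 (log2 2.34, SE 0.0718, TREAT adjusted p = 1.93e-07). PLK1, a kinase of mitotic entry, was at 56.8, 56.5 and 65.4 CPM in set 1 and 181, 179.7 and 193 CPM in set 2 (log2 1.64, SE 0.0576, TREAT adjusted p = 1.95e-05). The sets did not overlap for either gene. AURKA (2.53-fold), CENPA (2.56-fold), the survivin gene BIRC5 (2.57-fold) and the mitotic cyclin CCNB1 (2.32-fold) were the other called members. MKI67, the Ki-67 antigen, was at 132, 153 and 252 CPM in set 1 and 341, 406 and 402 CPM in set 2 and was not called (log2 1.16, SE 0.193, TREAT adjusted p = 1, moderated adjusted p = 0.000393). The member that went against the list was UBE2C, a ubiquitin-conjugating enzyme of the anaphase-promoting complex, at 443, 437 and 444 CPM in set 1 and 296, 283 and 285 CPM in set 2. Of genes chosen after their values were seen, the mitotic and replication regulators FOXM1 (2.8-fold, log2 1.49) and MYBL2 (2.63-fold, log2 1.39) were called higher in set 2, whereas MYC was called higher in set 1 (2.16-fold, TREAT adjusted p = 0.0353).

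The CHR letters TTTGAA, which MuvB complexes recognise, occurred in 15 of 25 mitosis promoters (60%) and in 9.76% of all promoters of genes tested, and CCAAT in 21 of 25 (84%) and 36.2%. In promoters of genes called higher in set 2 and in set 1, the CHR letters occurred in 14.9% and 8.5%, and CCAAT in 50.7% and 37%. Stretches of PLK1 (chr16:23678789-23678888, plus strand) and CENPA (chr2:26785956-26786055, plus strand), both called members of the list, are shown with the CHR letters in capitals.
PLK1: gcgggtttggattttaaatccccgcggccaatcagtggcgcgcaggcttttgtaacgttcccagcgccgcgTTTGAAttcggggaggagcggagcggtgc
CENPA: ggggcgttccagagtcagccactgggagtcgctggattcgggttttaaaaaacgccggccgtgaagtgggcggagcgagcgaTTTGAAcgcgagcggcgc
Both matches lie close to the annotated start, 29 bases upstream in PLK1 and 18 bases upstream in CENPA.

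Cell cycle inhibitors differed in both directions. CDKN1A, which encodes the inhibitor p21, was at 354, 358 and 346 CPM in set 1 and 107, 104 and 107 CPM in set 2, while No gRNA lay at 114, 105 and 111 CPM. The sets did not overlap, and set 1 was 3.33-fold higher (log2 -1.74, SE 0.0454, TREAT adjusted p = 7.25e-07). CDKN1C, encoding p57, was likewise called higher in set 1, at 8.53, 9.3 and 8.83 CPM against 2.75, 2.34 and 2.63 CPM, although this call was lost when any of the replicate numbers was left out. CDKN2C, which encodes the CDK4 and CDK6 inhibitor p18, was called higher in set 2, at 17.2, 17.7 and 16.7 CPM against 4.69, 5.46 and 6.91 CPM (log2 1.61). The G1 cyclin CCND1 was 1.39-fold higher in set 2 and was not called. Of 10 members of the list of D cyclins and CDK inhibitors that were tested, these 3 were called.

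Caveolae are flask-shaped pits of the plasma membrane coated by caveolins and cavins. All 6 caveolar genes passed the moderated test higher in set 2, 4 of the 6 were called, and the median log2 fold change was 1.53. CAVIN1, which stabilises the coat, was at 232, 229.6 and 228 CPM in set 1 and 849, 845 and 849 CPM in set 2 (log2 1.88, SE 0.0247, TREAT adjusted p = 7.52e-10). CAV1, the main caveolin, was at 316, 299 and 278 CPM in set 1 and 779, 774 and 763 CPM in set 2 (log2 1.38, SE 0.0364, TREAT adjusted p = 3.19e-05). CAVIN2 showed the largest difference of the group, from 27.8, 28.8 and 27.7 CPM in set 1 to 185, 182 and 189 CPM in set 2 (log2 2.72, SE 0.056, TREAT adjusted p = 2.2e-09). Values within each set were tight and the sets did not overlap. CAVIN3 was called as well (3.2-fold).

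Among cytoskeletal genes, VIM, the mesenchymal intermediate filament, was at 1349, 1338 and 1351 CPM in set 1 and 2598, 2555 and 2623 CPM in set 2. Set 2 lay near wild type (2629 CPM) and No gRNA (2425 CPM), and set 1 below all other groups (log2 0.94, SE 0.0229, moderated adjusted p = 5.14e-11, TREAT adjusted p = 1). Of 15 contractile and filament genes tested, 9 passed the moderated test higher in set 2 and 1 higher in set 1, and 0 were called. ACTN1, an actin crosslinker, was 1.58-fold and CNN3, a calponin, 1.77-fold higher in set 2. KRT8, a keratin of simple epithelia, was called higher in set 2, with 1089.8, 1024 and 1023 CPM against 256, 248 and 238 CPM in set 1 (log2 2.08, SE 0.0392, TREAT adjusted p = 6.79e-09). Its partner KRT18, which overlaps KRT8 on the opposite strand, was 1.77-fold higher. In the other direction KRT81, a hair keratin found in basal breast cancer lines, was at 119, 110.3 and 109.6 CPM in set 1 and 21.8, 20.8 and 21.5 CPM in set 2 (log2 -2.4, SE 0.0779, TREAT adjusted p = 2.65e-07), and KRT86 and KRT15 were also called, the latter not when any of the replicate numbers was left out. Of 10 keratins tested, 1 was called higher in set 2 and 3 higher in set 1. By the moderated test 6 keratins were higher in set 2 and 3 higher in set 1. KRT81 and KRT86 are close paralogs, so reads may be shared between them and their separate values are uncertain. Among other genes given with values, DDIT3, FOSB, GINS2, IL6, IL24, INHBA, KIF20A, MMP1, MMP10, SKP2 and VEGFA overlap a tested gene on the opposite strand, and strand use in counting is not given in the sources used here.

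Metabolic genes differed in specific steps. Of 31 hypoxia and glycolysis genes tested, 16 passed the moderated test higher in set 2 and 5 higher in set 1, with 3 called in each direction and a median log2 fold change of 0.32. PKM, the pyruvate kinase gene, was at 812, 839 and 818 CPM in set 1 and 2275, 2274 and 2271 CPM in set 2 (log2 1.47, SE 0.0177, TREAT adjusted p = 8.55e-09). PGAM1 (2.99-fold) and LDHA (2.34-fold), for phosphoglycerate mutase and lactate dehydrogenase, were the other glycolytic genes called higher in set 2. The members called higher in set 1 were not enzymes of the pathway: VEGFA, a vascular growth factor, was at 469.8, 518 and 485 CPM in set 1 and 179.5, 184 and 168 CPM in set 2, and the glucose transporter SLC2A3 (2.84-fold) and the MYC antagonist MXI1 (2.82-fold) accompanied it. Of 28 cholesterol and fatty acid synthesis genes, 16 passed the moderated test higher in set 2 and 2 higher in set 1. ACAT2, a thiolase that forms acetoacetyl-CoA at the start of the pathway, was at 26.6, 26.7 and 24.2 CPM in set 1 and 98, 93 and 88.8 CPM in set 2 (log2 1.85, SE 0.0676, TREAT adjusted p = 6.26e-06). DHCR7, of its last step, was at 31.7, 29 and 28.9 CPM in set 1 and 82.9, 87 and 86.4 CPM in set 2 and was called as well (2.86-fold).

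The ATF4 amino acid response was the list with the lowest median. ATF4 is a bZIP factor whose translation rises when eIF2 alpha is phosphorylated, and its targets supply and import amino acids. Of 24 members tested, 13 were called higher in set 1 and 0 higher in set 2, and 23 passed the moderated test higher in set 1 against 1 higher in set 2, with a median log2 fold change of -1.49. ASNS, the asparagine synthetase, was at 560.4, 553 and 578 CPM in set 1 and at 35.3, 37.2 and 34.8 CPM in set 2. The 15.7-fold difference (log2 -3.98, SE 0.0653, TREAT adjusted p = 7.96e-11) left no overlap, and No gRNA lay at 467, 462 and 486 CPM and wild type at 33.9, 40.5 and 40.3 CPM. CHAC1, which degrades glutathione, was at 87.9, 87.8 and 87.8 CPM in set 1 and 6.32, 6.02 and 7.7 CPM in set 2 (log2 -3.72, SE 0.101, TREAT adjusted p = 7.68e-09). DDIT3, encoding the stress factor CHOP, was at 45, 40.8 and 41.4 CPM in set 1 and 9.05, 10.3 and 10.5 CPM in set 2 (log2 -2.09). CEBPG, a partner of ATF4, was 3.59-fold higher in set 1, and so were the serine synthesis gene PSAT1 (2.74-fold), the pseudokinase TRIB3 (3.14-fold), the mTORC1 inhibitor SESN2 (4.04-fold) and the cystine transporter SLC7A11 (3.11-fold). ATF4 itself, which is regulated mainly through translation, was 1.41-fold higher in set 1 and not called. NUPR1 was at 2.88, 5.31 and 4.54 CPM in set 1 whereas no set 2 library exceeded 3 counts, so set 1 was at least 23.4-fold higher relative to a floor of 3 counts per library.

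Further genes of this stress response were chosen after their values were seen and are given as a description. PPP1R15A, which encodes the phosphatase subunit that reverses eIF2 alpha phosphorylation, was at 1399, 1387 and 1389 CPM in set 1 and 247, 250.1 and 246 CPM in set 2 (log2 -2.49, SE 0.0298, TREAT adjusted p = 4.23e-11). CTH, of cysteine synthesis, was 7.02-fold higher in set 1, PCK2, the mitochondrial phosphoenolpyruvate carboxykinase gene, 4.93-fold and the stress cytokine gene GDF15 6.54-fold. ADM2, an adrenomedullin-related peptide gene named by size, was 12.5-fold higher in set 1.

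The letters TGATGNAA, a C/EBP-ATF response element that ATF4 binds, occurred in 5 of 20 promoters of the list (25%), in 7% of promoters called higher in set 1, in 1.35% of those called higher in set 2 and in 1.71% of all promoters of genes tested. Stretches of ASNS (chr7:97872423-97872522, minus strand) and CHAC1 (chr15:40953221-40953320, plus strand), both called members of the list, are shown with the match in capitals.
ASNS: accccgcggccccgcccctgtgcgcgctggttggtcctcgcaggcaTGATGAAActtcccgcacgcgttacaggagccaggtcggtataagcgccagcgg
CHAC1: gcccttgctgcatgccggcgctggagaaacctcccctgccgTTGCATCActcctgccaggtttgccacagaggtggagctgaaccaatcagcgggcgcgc
In CHAC1 the match is on the opposite strand and therefore reads as its reverse complement.

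Endoplasmic reticulum genes were mixed. XBP1, the transcription factor of the IRE1 branch of the unfolded protein response, was at 350.5, 336 and 336 CPM in set 1 and 83.4, 75.7 and 85.1 CPM in set 2 (log2 -2.07, SE 0.0448, TREAT adjusted p = 1.85e-08). DNAJB9 (4.25-fold) and HERPUD1 (2.84-fold), of degradation of misfolded proteins, were called with it. HSPA5, the main chaperone BiP of this compartment, was 1.91-fold higher in set 1 and not called. Of 14 members tested, 9 passed the moderated test higher in set 1 and 3 higher in set 2, among them SDF2L1 (1.5-fold higher in set 2).

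TXNIP, which encodes an arrestin that limits glucose uptake and binds thioredoxin, was among the 12 genes with the largest difference towards set 1. It was at 2121, 2211 and 2173 CPM in set 1 and 85, 97.7 and 84.8 CPM in set 2, against 1276, 1311 and 1325 CPM in No gRNA and 91.7, 95.7 and 91 CPM in wild type. Set 2 overlapped wild type and set 1 exceeded every other library (24.3-fold between the sets, log2 -4.6, SE 0.0536, TREAT adjusted p = 5.21e-12). Its paralog ARRDC4, chosen after its values were seen, was at 97.5, 107 and 104 CPM in set 1 and 11.1, 13.2 and 12.2 CPM in set 2 (log2 -3.08).

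Cytokines and NF-kB feedback genes were higher in set 1. Of 24 members tested, 11 were called higher in set 1 and 0 higher in set 2, 19 passed the moderated test higher in set 1 and 1 higher in set 2, and the median log2 fold change was -1.34. IL1A, an alarmin of the interleukin-1 family, was at 448, 429.7 and 434 CPM in set 1 and 41.1, 43.3 and 39.6 CPM in set 2 (log2 -3.4, SE 0.0694, TREAT adjusted p = 8.71e-10). IL24, an interleukin-10 family cytokine, was at 196, 217 and 176 CPM in set 1 and 2.0, 6.44 and 7.86 CPM in set 2 (log2 -5.4, SE 0.486, TREAT adjusted p = 9.8e-05). CXCL8, the neutrophil chemokine interleukin-8, was at 1266, 1157 and 1189 CPM in set 1 and 247, 266 and 254 CPM in set 2 (log2 -2.23, SE 0.0511, TREAT adjusted p = 1.68e-08). In all 3 genes every library of set 1 exceeded every library of set 2. IL6 was at 93.9, 94.9 and 90.5 CPM in set 1 and 22.1, 19.9 and 20.8 CPM in set 2, and IL1B (3.54-fold), CSF2 (4.82-fold), CXCL2 (5.42-fold), IL11 (4.72-fold), LIF (3.45-fold), IL32 (4.1-fold) and the prostaglandin synthase gene PTGS2 (6.44-fold) were also called. CXCL1 differed by 1.29-fold and was not called, and CSF3, for granulocyte colony-stimulating factor, was 1.27-fold higher in set 2. LCN2 and TNFSF15, chosen after their values were seen, were 9.16-fold and 8.99-fold higher in set 1.

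An NF-kB-type motif, read on both strands, occurred in 11 of 23 promoters of the list (47.8%) and in 2.2% of all promoters of genes tested, but in 2.5% of promoters of genes called higher in set 1. Stretches of CXCL2 (chr4:74099219-74099318, minus strand) and IL6 (chr7:22727082-22727181, plus strand), both called, are shown with the match in capitals.
CXCL2: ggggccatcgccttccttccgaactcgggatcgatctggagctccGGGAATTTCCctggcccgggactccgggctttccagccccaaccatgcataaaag
IL6: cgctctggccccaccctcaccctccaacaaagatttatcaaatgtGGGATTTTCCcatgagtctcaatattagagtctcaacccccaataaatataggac
None of the motifs searched here contains another, although matches can overlap.

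Immediate early genes, which respond within minutes to ERK and stress signalling, were higher in set 1 as well. Of 24 AP-1 and immediate early genes tested, 11 were called higher in set 1 and 0 higher in set 2, 16 passed the moderated test higher in set 1 and 0 higher in set 2, and the median log2 fold change was -1.12. EGR1 was at 605, 650.4 and 637 CPM in set 1 and 53.5, 58.7 and 55.2 CPM in set 2 (log2 -3.5, SE 0.0604, TREAT adjusted p = 1.91e-10). ATF3, which the ATF4 list also holds, was at 48.9, 45.2 and 53.8 CPM in set 1 and 5.46, 6.52 and 6.37 CPM in set 2 (log2 -3.0, SE 0.131, TREAT adjusted p = 1.24e-06). The sets did not overlap for either gene, and both lay below wild type (203 CPM of EGR1 and 40.3 CPM of ATF3) in set 2. DUSP1 (3.59-fold) and the ERK phosphatase genes DUSP5 (2.74-fold) and DUSP6 (2.58-fold), SPRY4 (2.54-fold), JUNB (3.02-fold), PHLDA1 (2.54-fold), FOSB and EGR3 were called too. EGR2 was at 2.92, 1.52 and 1.25 CPM in set 1 and at or under 3 counts in set 2, at least 10.5-fold higher in set 1 relative to that floor. FOSL1, the AP-1 subunit typical of basal breast cancer lines, did not pass either test, with 509, 545 and 523 CPM in set 1 and 539.7, 540.4 and 538 CPM in set 2 (log2 0.04, 95% interval -0.02 to 0.10). The letters TGANTCA, an AP-1 motif, occurred in 11% of promoters called higher in set 1, in 1.35% of those called higher in set 2 and in 4.88% of all promoters of genes tested, and in 1 of 16 promoters of the list itself (6.25%).

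Proteases that degrade the matrix were higher in set 1. Of 19 proteases and inhibitors tested, 5 were called higher in set 1 and 0 higher in set 2, 13 passed the moderated test higher in set 1 and 1 higher in set 2, and the median log2 fold change was -0.85. MMP1, the interstitial collagenase, was at 11829, 11135 and 11315 CPM in set 1 and 1837, 1816 and 1844 CPM in set 2 (log2 -2.64, SE 0.0476, TREAT adjusted p = 8.71e-10). MMP10, a stromelysin, was at 16.6, 13.6 and 16.2 CPM in set 1 and 0.40, 0.592 and 0.527 CPM in set 2 (log2 -4.86, SE 0.359, TREAT adjusted p = 2.41e-05). MMP9, a gelatinase, was at 49.5, 53.9 and 49.2 CPM in set 1 and 8.95, 8.23 and 8.95 CPM in set 2 (log2 -2.54, SE 0.0989, TREAT adjusted p = 1.01e-06). For all 3 the lowest value of set 1 was several times the highest of set 2. MMP3 (4.62-fold) and ADAMTS6 (3.41-fold) were called, and the inhibitor TIMP1 was 2.16-fold higher in set 1 without being called. With no low-count filter the MMP1 difference was -2.61 on the log2 scale but was not called (TREAT adjusted p = 0.855).

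Adhesion genes differed by member. Of 8 hemidesmosome and laminin-332 genes tested, 2 were called higher in set 1, 1 passed the moderated test higher in set 2 and 2 higher in set 1, and the median log2 fold change was -0.05. LAMB3, the beta chain of laminin-332 in epithelial basement membranes, was at 3349, 3349 and 3403 CPM in set 1 and 1252, 1254 and 1264 CPM in set 2 (log2 -1.42, SE 0.0157, TREAT adjusted p = 7.68e-09). LAMA3, its alpha chain partner, was at 69.1, 73 and 77.5 CPM in set 1 and 78.2, 68.2 and 62.2 CPM in set 2 (log2 -0.08, 95% interval -0.32 to 0.17), so that these chains differed unequally. Of 12 integrins tested, 8 passed the moderated test higher in set 1 and 2 higher in set 2, and 0 were called. ITGA2, a collagen receptor subunit, was at 1211, 1243 and 1335 CPM in set 1 and 707, 708 and 732 CPM in set 2 (log2 -0.82). Among ERBB receptors and ligands, 3 of 10 members tested were called higher in set 1: the EGFR ligands AREG (150.1, 150.5 and 154 against 43.6, 42.2 and 45.6 CPM) and HBEGF (691, 678 and 701 against 305, 289 and 298 CPM) and the ERBB3 and ERBB4 ligand NRG1 (2.39-fold). INHBA, the activin A subunit gene, was at 763, 788 and 802 CPM in set 1 and 284, 294 and 286 CPM in set 2 (log2 -1.44, TREAT adjusted p = 1.36e-05). The WNT antagonist DKK3 (5.17-fold), the ligand WNT9A (3.5-fold) and the complement regulator CD55 (2.3-fold) were called higher in set 1. DKK3 and WNT9A were the only called members of 20 WNT pathway genes tested. By the moderated test, 6 WNT pathway genes were higher in set 2 and 5 higher in set 1, with a median log2 fold change of 0.12. Calls of CD55 and NRG1 were lost in most fits that left out libraries.

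The remaining lists gave few calls. Of 42 interferon-stimulated genes, 20 passed the moderated test higher in set 1 and 9 higher in set 2. IFI27 (6.73-fold) and the exonuclease gene ISG20 (4.44-fold) were called higher in set 1, while IFIT1 was 1.97-fold higher in set 2. Of 11 S100 genes, 9 passed the moderated test higher in set 1 and 1 higher in set 2, and S100P was called, at 1.82, 0.659 and 1.44 CPM in set 1 and at or under 3 counts in set 2 (at least 7.22-fold higher in set 1). Class I antigen presentation genes went both ways. Of 13 tested, 0 were called, with 3 higher in set 2 and 4 higher in set 1 by the moderated test. Their median log2 fold change was -0.01, with a range from -1.31 (HLA-E) to 0.79. CIITA, of the class II list, had a log2 fold change of 1.44. Of 22 NRF2 targets, only the transporter gene ABCC3 was called, higher in set 1 (3.85-fold). Most NRF2 targets past the moderated test went the other way, with 9 higher in set 2 and 5 higher in set 1. Of 19 YAP and TEAD targets, 15 collagens and 18 matrix glycoproteins, 0 were called. By the moderated test 9, 4 and 7 of them were higher in set 1 and 4, 1 and 5 higher in set 2, among them the YAP targets CCN1 and CCN2 (2.02-fold and 2.12-fold higher in set 1). Of 21 genes of the KRAB and ZEB1 corepressor machinery, 0 were called, and TRIM28, the KRAB cofactor, was 1.96-fold higher in set 2. Cancer-testis antigens (5 tested), the serine protease axis (3) and class II genes (2) had 0 calls, with 1, 3 and 2 past the moderated test.

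CDH1, EPCAM and ESRP1 lay above both control groups in each set, and differed between the sets in different directions or not beyond their spread. CDH1, which encodes E-cadherin and is a direct target of ZEB1, was at 19.3, 24.6 and 10.5 CPM in set 1 and 2.79, 5.23 and 1.3 CPM in set 2, against 0.196, 0.279 and 1.03 CPM in No gRNA and 0, 0.103 and 0.155 CPM in wild type. The sets did not overlap, and set 1 was 6.26-fold higher (log2 -2.65, SE 0.492, moderated adjusted p = 0.00083), which did not pass TREAT (adjusted p = 0.0882). EPCAM, an epithelial adhesion molecule, went the other way by less, at 299, 285 and 304 CPM in set 1 and 388, 393 and 397 CPM in set 2 (1.33-fold, moderated adjusted p = 4.29e-06). ESRP1, a splicing regulator repressed by ZEB1, was at 74.5, 61.8 and 76.9 CPM in set 1 and 58.1, 68.1 and 45.3 CPM in set 2, with overlap (moderated adjusted p = 0.139), and at 3.15 CPM in No gRNA. Of 27 junction genes tested, 13 passed the moderated test higher in set 1 and 6 higher in set 2, and only CLDN1, a claudin of the tight junction, was called (125, 123 and 137 against 47.8, 49.7 and 48.9 CPM, log2 -1.39, SE 0.0598, TREAT adjusted p = 0.00137).

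Of 4 EMT transcription factors tested, 1 was called, 2 passed the moderated test higher in set 1 and 0 higher in set 2. SNAI2, which encodes the repressor SLUG, was at 97.7, 95.9 and 95.3 CPM in set 1 and 38.2, 39 and 38.8 CPM in set 2, and at 15.8, 16.8 and 17.6 CPM in No gRNA. Both sets lay above No gRNA, and set 1 was 2.49-fold above set 2 (log2 -1.32, SE 0.0509, TREAT adjusted p = 0.002), a call that was lost when any of the replicate numbers was left out. SNAI1 was 2.22-fold higher in set 1 and not called (TREAT adjusted p = 1). ZEB2, the paralog of ZEB1, was at 23.6, 26.2 and 22.3 CPM in set 1 and 71.2, 13.6 and 15.9 CPM in set 2. Replicate 1 of set 2 stood apart from the others, and without it the log2 difference turned from 0.06 to -0.71. KLF4, a factor of epithelial differentiation, was called higher in set 1 (136, 143 and 149.8 against 45.3, 43.2 and 47.1 CPM, log2 -1.66, TREAT adjusted p = 5.12e-05). Of 16 epithelial transcription and splicing factors tested, 5 passed the moderated test higher in set 1 and 2 higher in set 2.

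The difference between the sets resembled the difference between the control groups, which share no library with them. Across 15721 genes, set 2 minus set 1 correlated with wild type minus No gRNA at Pearson's r = 0.60 and Spearman's rho = 0.64, given as a description across genes, which are not independent replicates. Signs matched for 74.7% of all genes. Wild type against No gRNA gave 566 calls, 199 higher in wild type (1.27% of genes tested) and 367 higher in No gRNA (2.33%). Of the 191 genes called higher in set 2, 190 were higher in wild type, 188 by the moderated test (background 27.6%) and 96 by TREAT, which is 50.3% of these genes and 48.2% of those called higher in wild type. Of the 292 called higher in set 1, 283 were higher in No gRNA, 265 by the moderated test (background 26.2%) and 145 by TREAT, which is 49.7% of these and 39.5% of those called higher in No gRNA. List medians of wild type minus No gRNA were 1.37 for G1/S genes, 0.70 for mitosis, 1.02 for caveolae, -1.5 for the ATF4 response and -1.34 for cytokines, beside 1.65, 0.83, 1.53, -1.49 and -1.34 between the sets. Other lists did not run alike: the median of hypoxia and glycolysis genes was -0.20 in wild type minus No gRNA and 0.32 between the sets, that of keratins -0.22 and 0.21, and that of S100 genes -0.22 and -0.84.

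**Figure D2:**
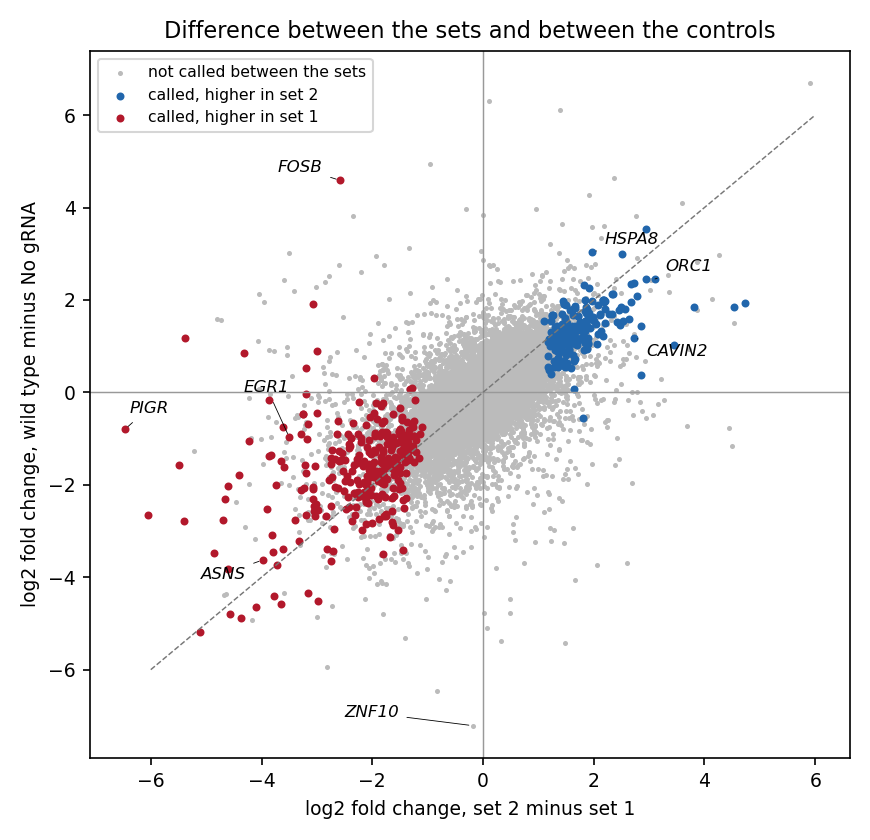
Log2 fold change of set 2 minus set 1 (horizontal axis) and of wild type minus No gRNA (vertical axis) for 15721 genes, with the 191 and 292 genes called between the sets in blue and red and a dashed line of equal change. Most called genes lie in the lower left and upper right quadrants, 9 of the 292 lie in the upper left with FOSB among them, and ZNF10 lies far lower on the vertical axis than its distance from 0 on the horizontal axis.

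In a principal component analysis of the 12 libraries, the first principal component of log2 CPM held 35.1% of the variance and ordered the groups as wild type (-64.3 to -65.4), set 2 (-27.5 to -29.9), No gRNA (28.9 to 32.2) and set 1 (61.7 to 64.3). The second held 22.7% and separated the silenced cells, at 51.6 to 54.2 in set 2 and 22 to 23 in set 1, from the controls, which were negative. On the log2 scale of mean CPM, set 1 lay nearer to No gRNA than to wild type for 186 of the 191 and 282 of the 292 called genes, and set 2 lay nearer to wild type for 179 and 249 of them. Called genes were chosen for a difference between the sets, and most share its sign between the controls. Their counts therefore follow in part from that choice and are no separate support. Over all genes tested, set 1 was nearer to wild type for 31.2% and set 2 for 60.8%. Correlations of libraries were 0.938 to 0.942 between the sets, 0.946 to 0.95 between set 1 and No gRNA and 0.947 to 0.949 between set 2 and wild type.

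**Figure D3:**
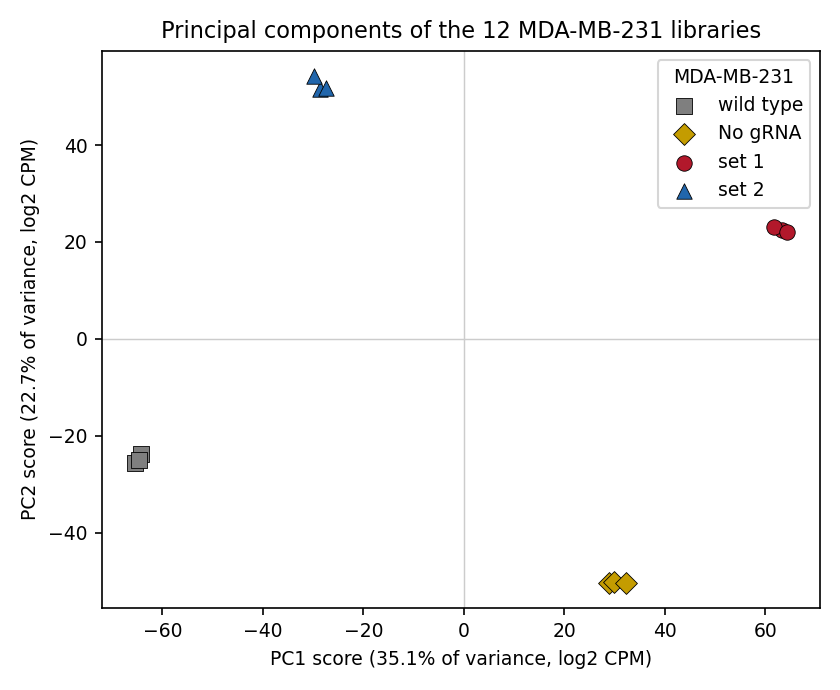
Scores of the 12 MDA-MB-231 libraries on the first (35.1%) and second (22.7%) principal components of log2 CPM, with 3 points per group. Replicates lie close together, set 2 and wild type lie at negative PC1, No gRNA and set 1 at positive PC1, and both sets lie at positive PC2.

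Genes that departed from this resemblance were found with the difference of both differences in the same fit, an alternative that was added after the data were seen. It called 37 genes, 23 with a positive (0.146%) and 14 with a negative value (0.0891%), and 16 of these were also called between the sets. The moderated test of the same difference passed 3574 genes, 1729 with a positive (11%) and 1845 with a negative value (11.7%). Of the 16, 5 are immediate early genes. FOSB was at 9.0, 10.1 and 13.2 CPM in set 1 and 1.39, 1.37 and 2.9 CPM in set 2, yet at 133, 113 and 114 CPM in wild type and 4.96 CPM on average in No gRNA (difference of differences -7.17 on the log2 scale). ATF3, DUSP1, EGR1 and EGR3 were also called by this test, with differences of differences of -3.89, -1.55, -2.52 and -4.99. Unlike FOSB, DUSP1 and EGR1 were lower in wild type than in No gRNA. For these genes the sign thus matched that between the sets, and the difference between the controls was smaller. IL11 was at 234, 219 and 229.9 CPM in set 1 and 49.1, 46.6 and 49 CPM in set 2, while No gRNA and wild type averaged 88.1 and 76.2 CPM. The list of AP-1 and immediate early genes accordingly had a median of -0.23 in wild type minus No gRNA and of -1.12 between the sets. The other called genes of the 16 were ABCA1, CAVIN2, CST1, CXCL2, DDIT4, DHRS2, G0S2, LINC01088, MMP1 and ENSG00000256206. ZNF10 differed between the controls and little between the sets.

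**Figure D4:**
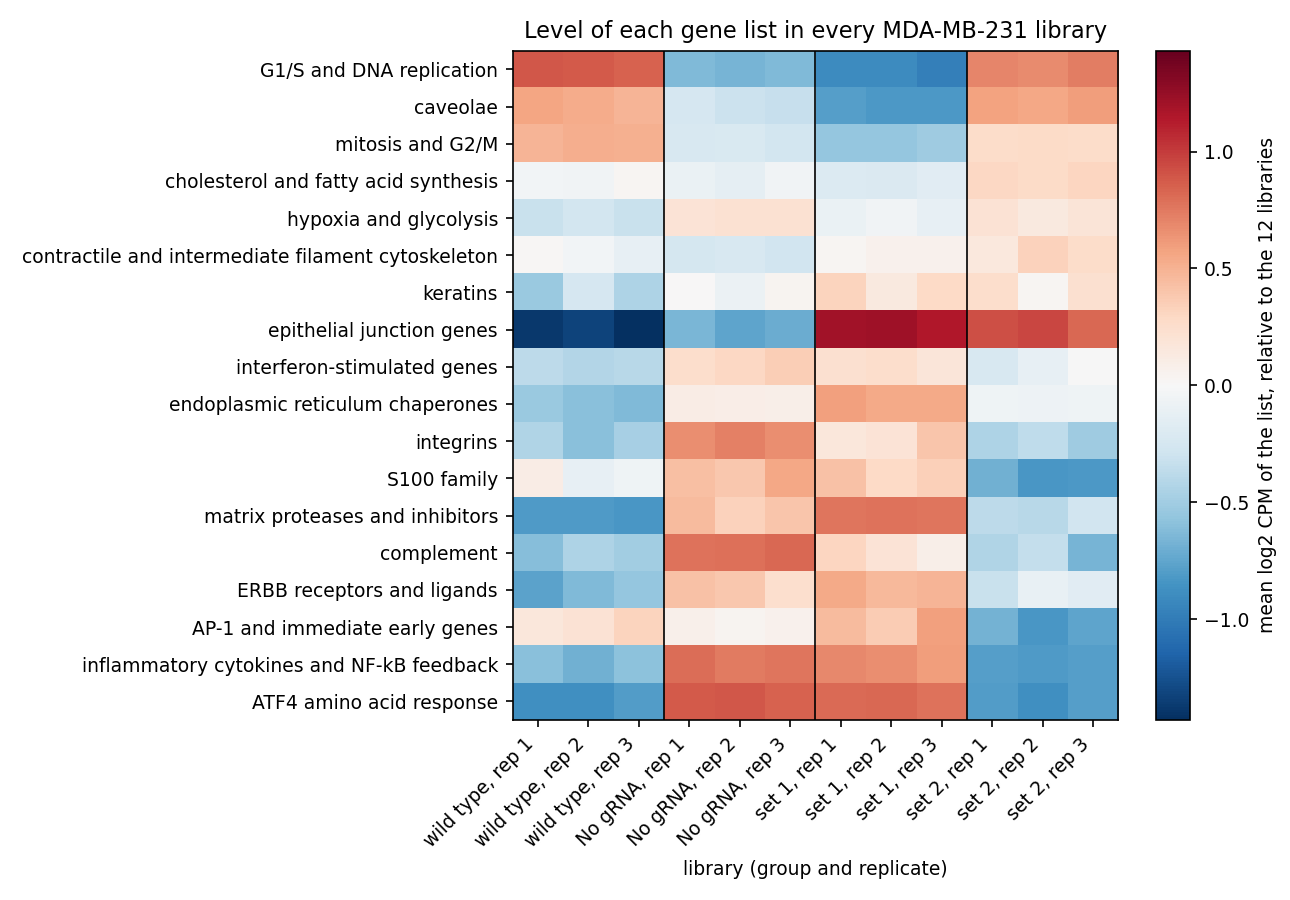
Mean log2 CPM of the tested members of 18 gene lists (rows) in each of the 12 MDA-MB-231 libraries (columns), relative to the mean of the 12, with red above and blue below. G1/S, mitosis and caveolae rows are red in wild type and set 2, the ATF4 and cytokine rows are red in No gRNA and set 1, and the epithelial junction row is red in both sets.

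The SUM159 groups with gRNA 4 and with the pool had 3 libraries each and were selected with 1.25 µg/ml puromycin. Unlike the MDA-MB-231 groups, their columns carry the prefix B1, which was taken as sequencing run 1. In these cells, where titles and columns name the same guides, gRNA 4 and the pool of 4 gRNAs gave few differences at the same thresholds. Of 15147 genes tested, TREAT called 0, with 32 at an unadjusted p below 0.05, and the moderated test passed 143 (0.944%). The median absolute log2 fold change over genes was 0.12 in SUM159 and 0.44 between the MDA-MB-231 sets. Of the genes called between the sets, 410 were tested in SUM159, where their median absolute log2 fold change was 0.12 and 11 passed the moderated test. Whether the lines differ in this respect was not tested.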

How the data were processed

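RNA of 27 libraries was sequenced by the authors as single-end reads, quantified with Salmon (version not given in the sources used here) and summed to genes with tximport. The deposited values are estimated counts (length-scaled, not normalized between libraries) for 57165 genes, of which 56347 were matched to GENCODE release 44.

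The main analysis used limma 3.58.1 under R 4.3.3, with DESeq2 1.42.0 and edgeR 4.0.16 as alternatives. The 12 MDA-MB-231 libraries were fitted with voom after TMM scaling and filterByExpr (minimum count 10). TREAT at a log2 fold change of 1 and the moderated test, both two-sided with Benjamini-Hochberg adjustment at 0.05, compared set 2 with set 1. CPM use TMM-scaled totals. p-values measure the spread between these libraries, whose independence is known only from the description as clones, and values for rare genes are limited by counting.

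The members and gene lists were chosen with earlier results of these data known. Named genes were the 12 with the largest fold changes in each direction (called, not overlapping, mean of at least 5 CPM in the higher set), up to 4 members of each list by moderated p, ZEB1 and ZEB1-AS1. Further called list members were named beside their counts, and others are stated as chosen after their values were seen. The steps were tested on simulated data. Alternatives were other tests, scalings, filters, sample weights, the replicate block, other libraries in the fit and libraries left out. The gRNA sequences and some list members are not reported here.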

Additional observations from a re-analysis of the deposited data

Results flagged for a closer look

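For 3 genes the sets departed from No gRNA in opposite directions, each called by TREAT, and the difference between the sets was called as well. DHRS2, a short-chain dehydrogenase gene, was at 83.4, 82.2 and 83.2 CPM in set 1, 17.1, 16.3 and 14.1 CPM in No gRNA and 3.27, 3.18 and 3.32 CPM in set 2, with a set 2 minus set 1 log2 fold change of -4.66. IL1A was at 190.1, 170.4 and 184 CPM in No gRNA, between set 1 and set 2, and differed by -3.4 between the sets. IL24 was at 45.8, 40.8 and 62.4 CPM in No gRNA and differed by -5.4 between the sets. Both comparisons with No gRNA share the same 3 control libraries.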

How the results depend on the processing

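The 483 calls became 2235 with the moderated test and an absolute log2 fold change over 1, 4790 with TREAT against the log2 of 1.2 and 740 with edgeR glmTreat. Leaving out a library or a replicate number gave 256 calls (without replicate 2) to 406 calls (without set 1 replicate 3), and 315 to 348 in place of 566 for wild type against No gRNA. The lower counts go with fewer libraries per group. DESeq2 (496), other scalings (477 to 485), filters (454 and 490), sample weights (499), the 6 libraries of both sets (400) and all 27 libraries gave counts within 1.5 times, and the moderated count ran from 6342 to 8266. The ZEB1 difference stayed between -0.29 and -0.002 and did not pass the test in these fits. Any pairing by replicate number was weak. Correlations of deviations were 0.0346, 0.0119 and 0.0287 for the same number, above those of different numbers (-0.0312 to 0.00181). With the replicate block 458 genes were called between the sets, 8022 passed the moderated test, ZEB1 differed by -0.18 and 535 were called between the controls. In SUM159, 0 calls by TREAT became 143 by the moderated test against 0. Signs turned, each without a call, on leaving out libraries: ZEB2 ranged from -0.71 (without set 2 replicate 1, at 71.2 CPM) and -0.70 (without replicate 1) to 0.58, XAGE1B from -0.13 to 0.0384 (0.02 without set 1 replicate 1), MAGEA6 from -0.51 to 0.61 (0.24 without set 1 or set 2 replicate 1) and CD14 from -0.37 to 0.077 (0.07 without replicate 2). Calls were lost without each replicate number for SNAI2, KRT15, CDKN1C, CD55 and NRG1, without replicate 1 for CLDN1, HERPUD1, CDKN2C and WNT9A, without replicate 2 for CCNB1, DHCR7, CAVIN3, IL1RL1, MPP4, TMPO-AS1, ZBED2, CDKN2C and WNT9A, and without replicate 3 for CAVIN3 and MPP4. Depth limits genes near 3 counts per library.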

Other observations

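The genes named here were chosen after their values were seen, apart from those named by size. Of chaperone genes, HSPA8, the constitutive Hsc70, was at 664, 658 and 624 CPM in set 1 and 2526, 2518 and 2594 CPM in set 2 (log2 1.97, SE 0.0414, TREAT adjusted p = 2.11e-08), and at 459.8, 515 and 499 CPM in No gRNA and 4142, 3958 and 3935 CPM in wild type. HSP90AA1 (2.52-fold), the co-chaperone gene DNAJA1 (2.35-fold) and the mitochondrial co-chaperonin HSPE1 (3.16-fold) were called in the same direction. NR1D1, the circadian repressor REV-ERB alpha, was at 112, 119 and 119.6 CPM in set 1 and 17.1, 19.7 and 15.7 CPM in set 2 (log2 -2.74, SE 0.0927, TREAT adjusted p = 1.85e-07). The clock gene PER2 was at 29.4, 28.4 and 30.9 CPM in set 1 and 4.21, 5.19 and 3.96 CPM in set 2, and PER1 was 4.19-fold higher in set 1. KLF9 and TSC22D3, known as glucocorticoid-responsive genes, were 3.74-fold and 4.17-fold higher in set 1.

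The mitochondrial ribosomal RNA gene MT-RNR2 was at 4233, 4597 and 3957 CPM in set 1 and 1258, 1158 and 1284 CPM in set 2 (log2 -1.79, SE 0.0793, TREAT adjusted p = 4.26e-05), with 3896, 4397 and 4025 CPM in No gRNA and 1289, 1336 and 1253 CPM in wild type. The share of counts from mitochondrial genes was 1.48% to 1.69% in set 1 and 1.40% to 1.56% in set 2. SAT1, of polyamine breakdown, was at 238, 245 and 246 CPM in set 1 and 43.4, 50.1 and 47.3 CPM in set 2 (log2 -2.37), and SERPINB2, a plasminogen activator inhibitor gene, at 419, 383 and 392 CPM and 77, 73.3 and 72.8 CPM (log2 -2.42). PIGR, the polymeric immunoglobulin receptor gene, had the largest difference among the named genes, at 10.5, 7.7 and 11.1 CPM in set 1 and 0.257, 0.0991 and 0 CPM in set 2, with 0.242, 0.329 and 0.142 CPM in No gRNA (TREAT adjusted p = 0.000192). KCNJ12, a potassium channel gene, was at 6.3, 4.69 and 4.97 CPM in set 1 and 0.216, 0.16 and 0 CPM in set 2, but its reads may be shared with the near-identical KCNJ18. ALOX5AP (14.1-fold), the interleukin-33 receptor gene IL1RL1 (13.9-fold) and CD22 (12.1-fold) completed the genes named by size in set 1.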
